A study of Mus musculus with 2 samples.

Results

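The genes described here are 6 that osteoblasts use to direct, or that mark, the making of bone-resorbing osteoclasts: Tnfsf11 (RANKL), Tnfrsf11b (OPG), Tnfrsf11a (RANK), Csf1 (M-CSF), Il6 and Vdr. They were taken by name from the GENCODE M21 annotation of the mouse genome GRCm38, each with 25 kb on either side except Tnfsf11, which was given 100 kb, and they are 6 of 21883 protein-coding genes with enough data around their start. CG methylation was measured by whole genome bisulfite sequencing (WGBS) in primary osteoblasts of 3-day-old C57BL/6 mice, harvested after 3 days of culture. There was 1 library from wild type (WT) mice and 1 from TCKO mice, which carry floxed alleles of Tet1, Tet2 and Tet3 (Tet1fl/fl Tet2fl/fl Tet3fl/fl) and Prx1-Cre. Prx1-Cre acts in mesenchymal cells of the limb buds and parts of the skull, so cells of another origin in the culture would keep their Tet genes.

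RANKL on osteoblast-lineage cells binds RANK on osteoclast precursors and drives them to become osteoclasts, while OPG is a secreted decoy that captures RANKL. M-CSF keeps those precursors alive, interleukin-6 raises RANKL in stromal cells, and the vitamin D receptor VDR is a nuclear receptor that turns on Tnfsf11. In mouse, Tnfsf11 is known for enhancers that lie far upstream of its start. TET enzymes oxidise 5-methylcytosine (5mC), a step toward its removal.

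A level is the share of methylated calls among all calls, pooled over the CG cytosines of a region. Bisulfite sequencing reads 5mC and 5-hydroxymethylcytosine alike. The WT library held 261127589 calls, with 70.2% methylated, and the TCKO library 223645082 calls, with 76.3% methylated, which is 5.97 and 5.11 for every CG cytosine in the genome sequence. With 1 library per genotype no difference has a replicate check: each Fisher exact test, 2-sided and adjusted over the genome by Benjamini-Hochberg (adjusted exact p, passed below 0.05), compares these 2 libraries, and Wilson 95% intervals cover counting error only. A shift in the makeup of the cultures and a shift within cells cannot be told apart. In a stretch of each Tet gene, found by searching for few TCKO calls, the WT and TCKO libraries held 755 and 70 calls (Tet1), 122 and 13 calls (Tet2) and 133 and 9 calls (Tet3). Around the starts of the osteoblast genes Col1a1, Col1a2, Runx2, Sp7, Alpl and Bglap the WT levels ran from 3.38% to 76.8%, and around those of the myeloid and osteoclast genes Ptprc, Spi1, Itgam, Csf1r, Cd68 and Acp5 from 64.4% to 77.4%. In TCKO these ranges were 18.97% to 81.0% and 71.9% to 85.4%, and a methylation level is no measure of expression.

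By the pooled level of the 4 kb window centred on their starts, the 6 genes fell into 2 sets of 3. Il6, Csf1 and Tnfrsf11a were 20.02 to 29.6 points higher in the TCKO library, whereas Tnfsf11, Tnfrsf11b and Vdr differed by no more than 5.88 points and did not pass the test. The split depended on the window. From 1 kb upstream to 100 bp downstream, Tnfrsf11a (9.65 points) and Tnfsf11 (7.47) lay close and neither passed, while Il6 (48.4) and Csf1 (22.7) still passed. In the 4 kb window centred on the start, 3 of the 6 genes passed the test as higher in TCKO, beside 37.9% of all genes tested, and the median difference was 12.95 points against 4.71 over all genes. Over the gene body all 6 genes passed as higher, beside 64.4% of all gene bodies, with a median difference of 10.7 points against 5.66. The contrast between starts and bodies is seen in the plot of levels by gene.

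**Figure D1:**
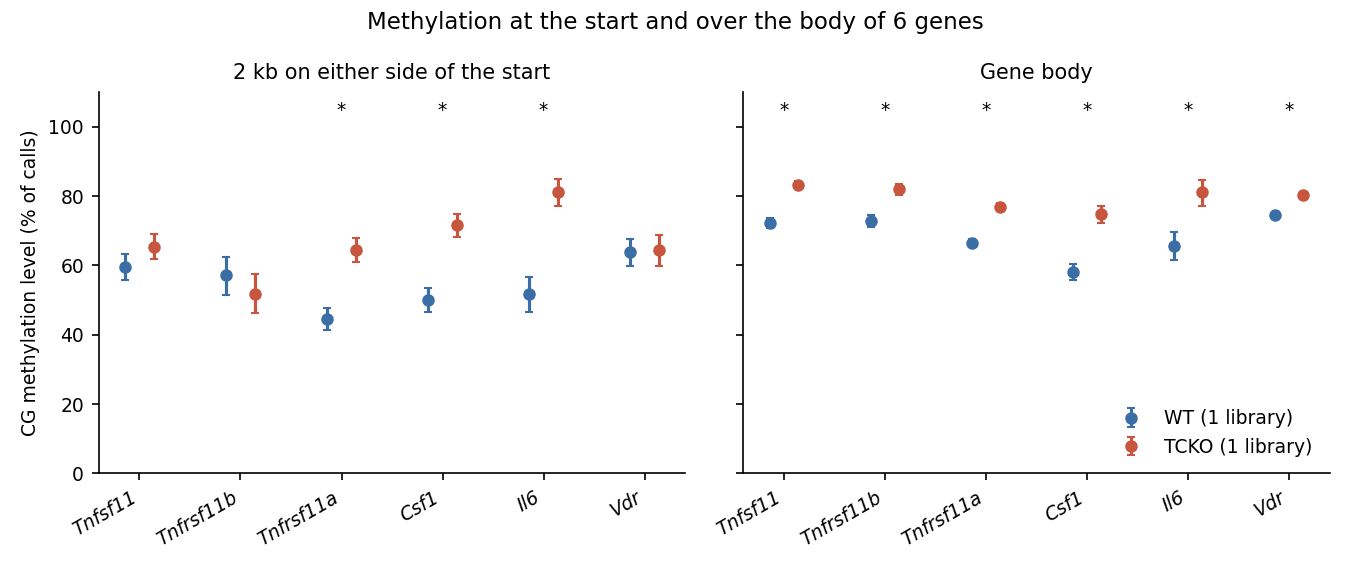
CG methylation level (% of calls, y axis) of 6 genes in the WT (blue) and TCKO (red) library, in the 4 kb window centred on the start (left) and over the gene body (right). Points are pooled levels of 1 library, bars are Wilson 95% intervals, and asterisks mark an adjusted p below 0.05. At the starts only Tnfrsf11a, Csf1 and Il6 carry an asterisk, and over the bodies all 6 genes do.

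Il6 (chr5:30013114-30019981, plus strand) encodes the cytokine interleukin-6. Its start window rose from 51.7% of 379 calls in WT to 81.3% of 385 calls in TCKO, a difference of 29.6 points (adjusted exact p = 3.05e-16) that was larger than that of 99.4% of genes. Counting only cytosines with at least 4 calls in each library, the levels were 70.4% and 84.3%, or 13.9 points apart (adjusted exact p = 0.00154). The gain was concentrated close to the start. Within 500 bp on either side, WT had 3.70% of 135 calls methylated and TCKO 63.7% of 113 calls, whereas the windows farther out in the same 4 kb were at 55% or above in both libraries. Of the CpGs in those 1000 bases, 12 had at least 4 calls in each library, and all 12 were higher in TCKO. Their WT levels ran from 0 to 28.6% and their TCKO levels from 50% to 85.7%. The promoter is shown because it holds the CpGs of a 200 bp bin that gained over 40 points. It is given on the plus strand from 250 bases before the start to 49 after it (chr5:30012864-30013163, GRCm38), with CG in capitals.

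Il6 promoter: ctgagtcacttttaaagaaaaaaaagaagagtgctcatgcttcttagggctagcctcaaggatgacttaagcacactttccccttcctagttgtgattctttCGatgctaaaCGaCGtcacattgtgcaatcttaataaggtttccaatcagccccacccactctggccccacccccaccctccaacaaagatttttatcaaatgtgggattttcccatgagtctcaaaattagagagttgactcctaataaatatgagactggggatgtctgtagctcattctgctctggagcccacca

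Only 3 CpGs fall in these 300 bases, and all 3 lie within 150 bases upstream of the start. Each was unmethylated in WT, with 0 of 8, 0 of 9 and 0 of 8 calls. In TCKO the same CpGs had 11 of 15, 9 of 15 and 8 of 15 calls methylated. The 200 bp bin that holds them, centred at -213 bp, thus went from 0% of 25 calls (95% interval up to 13.3%) to 62.2% of 45 calls (47.6% to 74.9%; adjusted exact p = 5.20e-06). In the same 300 bases of Csf1, which hold 16 CpGs, 0 of 59 calls were methylated in WT and 13.9% of 36 calls in TCKO.

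Csf1 (chr3:107741048-107760469, minus strand) encodes M-CSF. Its start window was methylated in 381 of 762 calls (50%) in WT and 71.5% of 692 calls in TCKO, 21.5 points higher (adjusted exact p = 3.30e-15). The first 1000 bases of the gene had no methylated call in either library. Over the 2 successive 500 bp windows these were 0 of 50 and 0 of 20 calls in WT and 0 of 22 and 0 of 20 calls in TCKO. With 94 and 28 CG cytosines in these windows coverage was thin, and the TCKO intervals reach up to 14.9% and 16.1%. The difference that was measured came from the windows around them. From -1000 to -500 bp the level was 76.4% of 157 calls in WT and 95.04% of 141 calls in TCKO, and from 1000 to 1500 bp it was 14.3% of 119 calls and 44.8% of 105 calls. In the last 500 bp before the start, 0 of 40 calls were methylated in WT and 16.7% of 30 calls in TCKO (7.34% to 33.6%). On the plus strand alone the difference of the window was 7.78 points and did not pass (adjusted exact p = 0.0646).

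Tnfrsf11a (chr1:105780718-105847981, plus strand) encodes RANK, the receptor of RANKL on osteoclast precursors. It was at 44.5% of 904 calls in WT and 64.5% of 690 calls in TCKO around its start, 20.02 points higher (adjusted exact p = 1.26e-13). Counting only cytosines with at least 4 calls in each library, the levels were 63.1% and 73.7%, or 10.6 points apart (adjusted exact p = 0.00216). As at Csf1, the first 500 bases of the gene were low in both libraries, at 5.47% of 128 calls in WT and 5.13% of 39 calls in TCKO. With fewer calls, these low bases weighed less in the pooled TCKO level than in the WT level. The mean of single cytosine levels, which gives each cytosine the same weight, differed by 12.8 points over the start window. The level rose farther into the gene, from 41.2% of 34 calls to 76.9% of 39 calls between 1000 and 1500 bp, and from 47.3% of 167 calls to 68.4% of 171 calls between 1500 and 2000 bp. With the window narrowed to 1 kb upstream and 100 bp downstream, the difference was 9.65 points and no longer passed (adjusted exact p = 0.0689).

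Tnfsf11 (chr14:78277445-78308043, minus strand) encodes RANKL. Its start window was 59.5% of 672 calls in WT and 65.4% of 662 calls in TCKO, a difference of 5.88 points that did not pass (adjusted exact p = 0.0642) and was larger than that of 56.5% of genes. In the first 500 bases of the gene, which hold 88 CG cytosines, 0 of 78 calls were methylated in WT (up to 4.69%) and 0 of 70 in TCKO (up to 5.20%). Depth was thin there: from 161 to 409 bp each CpG had 1 call in WT and at most 2 in TCKO. The calls thus came from few reads, and these upper limits are likely too low. From 500 to 1000 bp the levels were 7 of 70 calls (10%) and 8.70% of 69 calls. The level then parted between 1000 and 1500 bp, at 18.2% of 66 calls in WT and 61.3% of 80 calls in TCKO. The promoter is shown as the counterpart of the Il6 promoter, on the minus strand in the direction of transcription over the same span (chr14:78307994-78308293, GRCm38), with CG in capitals.

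Tnfsf11 promoter: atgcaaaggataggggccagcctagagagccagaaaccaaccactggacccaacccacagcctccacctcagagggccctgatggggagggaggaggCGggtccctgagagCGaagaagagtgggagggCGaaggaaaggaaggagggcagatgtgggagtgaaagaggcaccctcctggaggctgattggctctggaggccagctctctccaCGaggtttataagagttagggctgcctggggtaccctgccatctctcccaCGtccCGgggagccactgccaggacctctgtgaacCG

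These 300 bases hold 7 CpGs, against 3 at Il6. Of 43 WT calls 11.6% were methylated (5.07% to 24.5%), and of 17 TCKO calls 5.88% (1.05% to 27.0%), so no difference was detectable at this depth.

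Tnfrsf11b (chr15:54250619-54278484, minus strand) encodes OPG and was the only one of the 6 genes with a lower value in TCKO at its start. The levels were 57.1% of 310 calls in WT and 51.9% of 297 calls in TCKO, a difference of -5.24 points (adjusted exact p = 0.345). The sign was not stable, since the window of 1 kb upstream to 100 bp downstream gave 6.67% of 45 calls and 9.09% of 55 calls. In the first 500 bases of the gene the level was 5.36% of 56 calls in WT and 10.5% of 76 calls in TCKO, with overlapping intervals.

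Vdr (chr15:97854425-97910630, minus strand) encodes the vitamin D receptor. The window at its annotated 5′ end was at 63.9% of 559 calls in WT and 64.5% of 445 calls in TCKO (0.63 points, adjusted exact p = 0.908). Its principal transcript starts 2320 bp into the gene. In the 500 bp on either side of that start, 1.98% of 101 calls were methylated in WT and 5.50% of 109 calls in TCKO, and the 4 kb window there went from 29.2% to 37.4% without passing (adjusted exact p = 0.0581). The sign was not stable at that start either. From 1 kb upstream to 100 bp downstream of it, 21.7% of 92 calls were methylated in WT and 10.7% of 84 calls in TCKO.

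**Figure D2:**
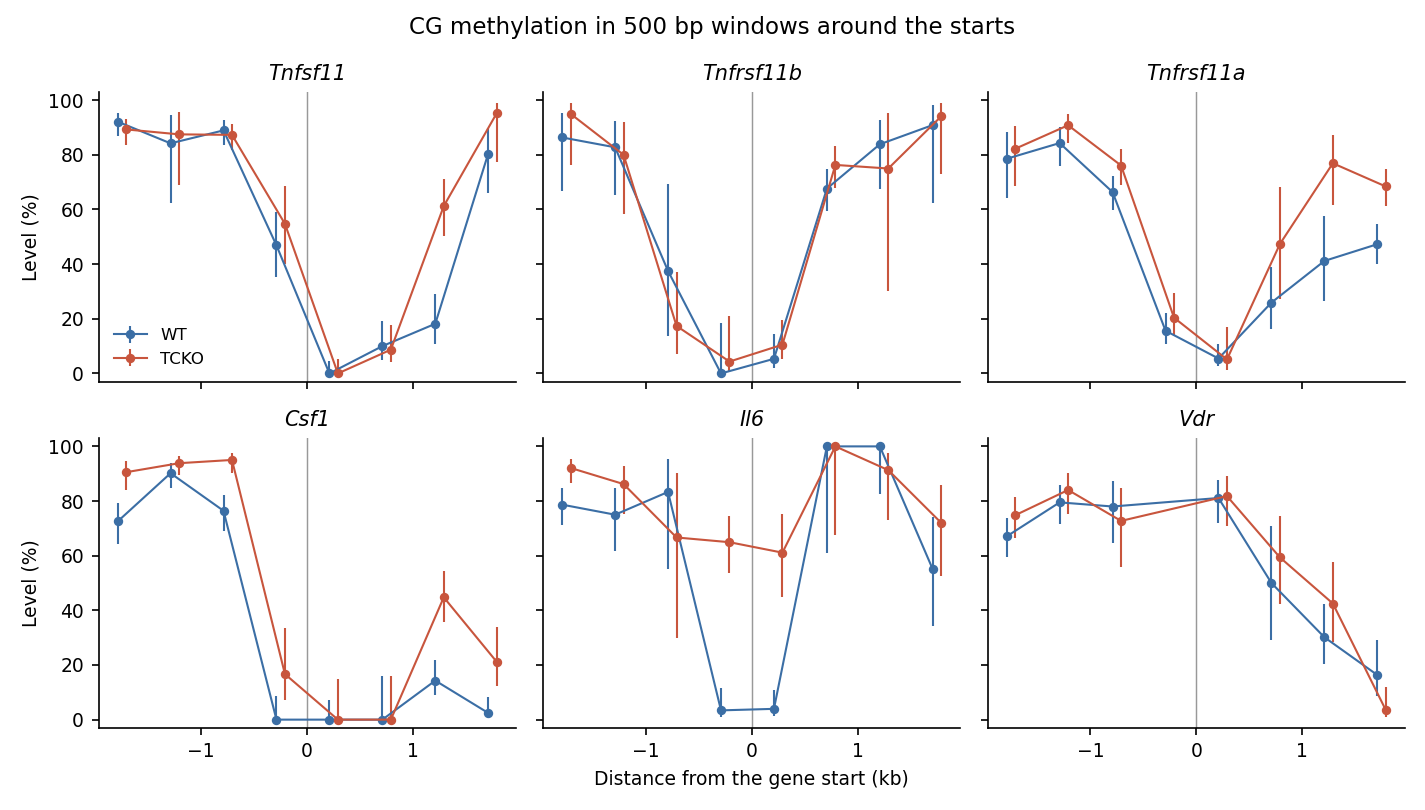
CG methylation level (y axis, %) in 500 bp windows against the distance of the window centre from the annotated start (x axis, kb, direction of transcription) in WT (blue) and TCKO (red), 1 panel per gene. Bars are Wilson 95% intervals. The libraries part at the start of Il6, stay together within the first 500 bases of Tnfsf11, Tnfrsf11b, Tnfrsf11a and Csf1, and their intervals overlap in every window of Vdr, which has no CG in the 500 bp before its start.

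Over the gene bodies the largest differences were those of Csf1, from 58.1% of 1597 calls to 74.8% of 1280 calls (adjusted exact p = 3.04e-20), and Il6, from 65.7% of 551 calls to 81.1% of 434 calls (15.4 points, adjusted exact p = 1.64e-07). The Il6 value rested in good part on the start of this short gene, since without the first 2 kb the body was at 75.2% and 82.7%, or 7.57 points apart (adjusted exact p = 0.0204), less than Tnfsf11 (10.9 points), Tnfrsf11b (10.2) and Tnfrsf11a (9.12) over the same part. With at least 4 calls per cytosine the Il6 body differed by 7.33 points. The Tnfsf11 body was at 72.3% of 4261 calls and 83.3% of 4234 calls (adjusted exact p = 8.26e-34). Tnfrsf11a went from 66.5% of 7265 calls to 76.9% of 6200 calls and Tnfrsf11b from 72.7% of 2675 calls to 81.9% of 2509 calls. The smallest was Vdr, from 74.5% of 6863 calls to 80.3% of 5402 calls, a difference of 5.81 points that was close to the median of all gene bodies.

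To find where within each locus methylation was gained, 200 bp bins were tested if they held 4 or more CG cytosines and averaged 4 or more calls on each in both libraries. A bin was called when TCKO exceeded WT by at least 40 points with an adjusted p below 0.05. In the 6 loci 36 of 745 testable bins were called, or 4.83%, beside 2.87% of all testable bins of the genome. Tnfsf11 held 23 of its 303 testable bins (7.59%), Csf1 5 of 77 (6.49%), Il6 3 of 61 (4.92%), Tnfrsf11b 2 of 70 (2.86%), Tnfrsf11a 3 of 128 (2.34%) and Vdr 0 of 106. The shares of Tnfrsf11b and Tnfrsf11a were near that of the genome. No bin of the 6 loci was called as lower by 40 points, beside 0.0355% of the genome, and the single bin that passed the test as lower at any size lay at -19.02 kb of Tnfrsf11a (100% of 56 calls in WT and 83.3% of 48 calls in TCKO).

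Counted over 25 kb on either side for every gene with at least 20 testable bins, the Tnfsf11 locus had 12 of 114 bins called (10.5%), a share above that of 98.8% of 21206 genes, where the median was 1.61%. With 100 kb on either side for every gene, Csf1 had 22 of 242 bins called (9.09%) and Tnfsf11 23 of 303, above 99.5% and 98.5% of genes. Tnfrsf11b, Tnfrsf11a, Il6 and Vdr then held 6 of 182, 7 of 283, 4 of 181 and 3 of 211. Their shares were above those of 75.1%, 61.3%, 55.9% and 38.6% of 21879 genes, where the median with 100 kb was 1.93%.

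By bin midpoint, 15 of 256 testable bins upstream of their gene were called, 13 of 198 in introns, 8 of 270 downstream and 0 of 19 in exons. Over all positions 2.87% of testable bins of the genome were called, and the genome was not split by position here. Most called bins lay far from the start, as did most testable bins: 29 of 612 beyond 10 kb were called, and 3 of 33 within 2 kb. They held 4 to 12 CG cytosines, with a median of 6 as in the called bins of the genome, and 33.5% to 51.5% G and C. In each of the 36 bins the WT interval lay below the TCKO interval. All 105 CpGs of these bins had calls in both libraries, and each was higher in TCKO; since the bins were chosen by their gain, this describes them and tests nothing.

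At Tnfsf11 the called bins were single bins spread over the locus, except for 4 that adjoined inside the gene. Upstream, 11 of 118 testable bins were called, in the gene 9 of 45, and downstream 3 of 140. Pooled over 10 kb windows, all 24 windows of the locus were higher in TCKO, by 1.26 to 24.1 points with a median of 8.05. The last window, cut off at the end of the locus, held 6 CG cytosines, with 18 calls in WT and 24 in TCKO. It falls short of the minimum of 589 calls that was set for windows of the genome. Of 206042 such windows of the genome with at least 589 calls in each library, 89.5% were higher, with a median difference of 5.99 points, so a higher level by itself was common. The largest difference was in the window from -80 to -70 kb, at 60.3% of 1120 calls in WT and 84.3% of 1258 calls in TCKO, followed by the window from -70 to -60 kb, at 61.2% of 673 calls and 82.0% of 706 calls. The 10 kb just upstream of the start changed little, from 82.4% of 1481 calls to 84.6% of 1386 calls.

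**Figure D3:**
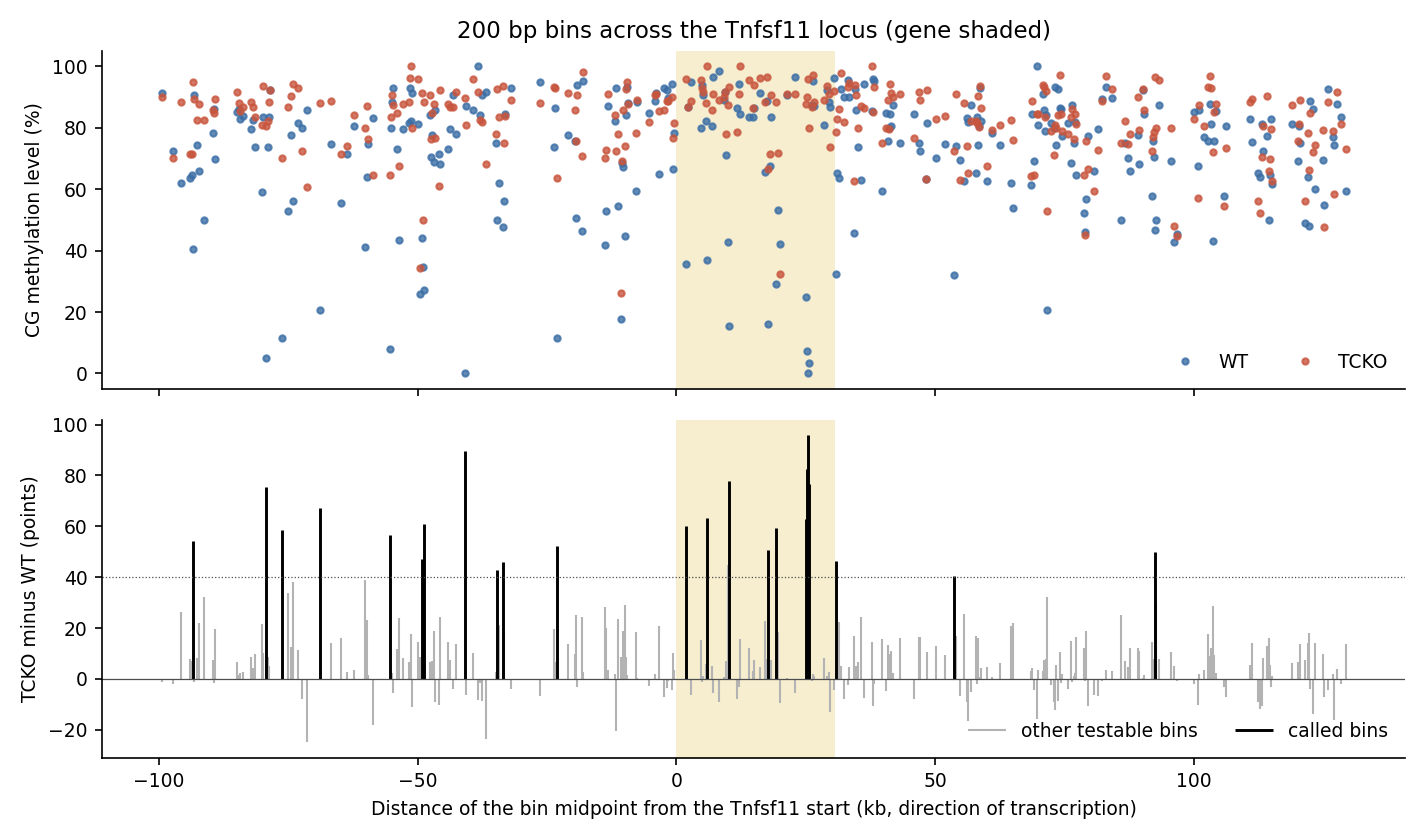
Testable 200 bp bins across the Tnfsf11 locus by distance from the start (x axis, kb, direction of transcription; gene shaded). The upper panel gives the CG methylation level (%) in WT (blue) and TCKO (red), and the lower panel TCKO minus WT (points), with the 23 called bins in black and the 40-point threshold dotted. Most called bins lie upstream of the start or in the gene, and 3 lie downstream.

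The upstream bins with the largest gains, at -40.9 and -79.3 kb, were both nearly unmethylated in WT and are shown as sequence. The bin at -40.9 kb (chr14:78348801-78349000) was the upstream bin with the largest gain. The bin at -79.3 kb (chr14:78387201-78387400) was picked after its values were seen, for the smallest p of the locus. Both are on the plus strand of GRCm38, with CG in capitals.

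Tnfsf11 bin at -40.9 kb: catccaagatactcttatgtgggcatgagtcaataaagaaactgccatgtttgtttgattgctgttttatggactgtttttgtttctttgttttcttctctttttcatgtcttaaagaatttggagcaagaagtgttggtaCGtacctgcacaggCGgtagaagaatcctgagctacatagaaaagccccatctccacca

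Tnfsf11 bin at -79.3 kb: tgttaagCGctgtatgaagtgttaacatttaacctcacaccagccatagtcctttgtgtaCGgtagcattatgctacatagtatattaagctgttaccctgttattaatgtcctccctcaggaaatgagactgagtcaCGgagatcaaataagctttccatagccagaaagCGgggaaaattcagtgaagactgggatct

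The bin at -40.9 kb went from 0 of 20 calls in WT (up to 16.1%) to 89.7% of 58 calls in TCKO (adjusted exact p = 3.85e-11). The bin at -79.3 kb went from 5.15% of 97 calls to 80.6% of 98 calls (adjusted exact p = 8.26e-26). Each holds the letters TGAGTCA, the reverse complement of the AP-1 site TGACTCA. Of the other upstream bins, that at -76.3 kb was at 11.5% of 52 calls in WT and 70.1% of 77 calls in TCKO, and that at -68.9 kb at 20.7% of 29 calls and 88.0% of 25 calls. At -55.3 kb the levels were 2 of 25 calls (8%) and 64.6% of 79 calls, and at -23.1 kb 11.5% of 26 calls and 63.6% of 22 calls. In the bins at -93.5, -49.1, -48.7, -34.7 and -33.5 kb, WT was at 27.3% to 50% and TCKO at 88.2% to 94.9%. No enhancer coordinates were used here, so the bins were not matched to known enhancers.

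Inside the gene, 4 adjoining bins made the only run of called bins in the 6 loci. The run (chr14:78282201-78283000) lies 25.04 to 25.84 kb after the start, in intron 4 of 5 exons. Over its 800 bases 15.7% of 248 calls were methylated in WT (11.7% to 20.8%) and 88.1% of 218 calls in TCKO (83.1% to 91.7%), a difference of 72.3 points. The 2 middle bins are shown as the pair with the largest gains of the run, on the plus strand of GRCm38 with CG in capitals (chr14:78282401-78282600 and chr14:78282601-78282800).

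Tnfsf11 intron 4, bin at 25.5 kb: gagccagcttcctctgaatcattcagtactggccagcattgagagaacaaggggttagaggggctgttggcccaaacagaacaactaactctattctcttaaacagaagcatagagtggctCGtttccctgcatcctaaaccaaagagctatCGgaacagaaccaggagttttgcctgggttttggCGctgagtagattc

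Tnfsf11 intron 4, bin at 25.3 kb: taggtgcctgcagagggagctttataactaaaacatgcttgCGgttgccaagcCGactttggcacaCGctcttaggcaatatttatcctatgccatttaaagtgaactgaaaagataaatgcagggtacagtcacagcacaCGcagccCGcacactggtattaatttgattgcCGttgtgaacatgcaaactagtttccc

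The bin at 25.5 kb went from 0 of 28 calls to 95.8% of 24 calls, the largest gain of the 6 loci (adjusted exact p = 2.35e-11). The bin at 25.3 kb went from 7.41% of 54 calls to 89.8% of 49 calls (adjusted exact p = 8.72e-16). Of the outer bins, that at 25.7 kb went from 3.45% of 29 calls to 80.0% of 30 calls, and that at 25.1 kb from 24.8% of 137 calls to 87.8% of 115 calls. All 17 CpGs of the run were higher in TCKO. On both sides the neighbouring bin was intermediate in WT. Toward the 3′ end it was at 60.9% of 46 calls in WT and 81.7% of 60 calls in TCKO, and the next one at 87.3% of 63 calls and 86.6% of 82 calls. Toward the 5′ end the neighbour was at 52.6% of 19 calls and 90.3% of 31 calls, and the next one at 82.8% of 29 calls and 89.3% of 28 calls.

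**Figure D4:**
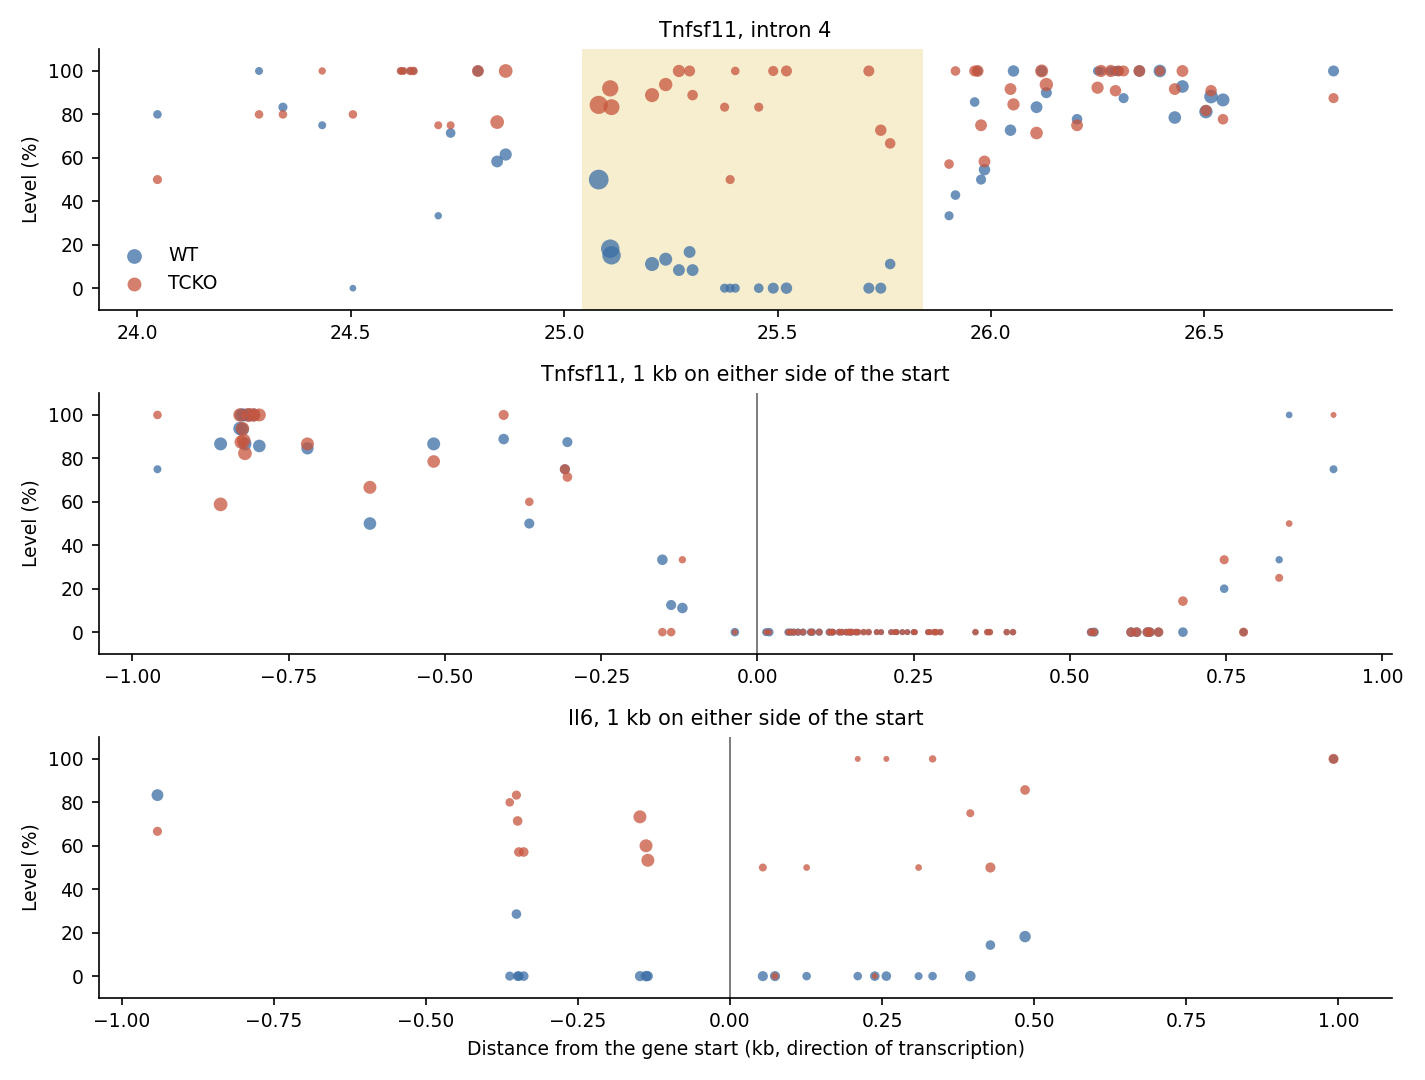
Methylation level of single CpGs, both strands pooled (y axis, %), by distance from the gene start (x axis, kb, direction of transcription) in WT (blue) and TCKO (red), with point area growing with the number of calls. Top, intron 4 of Tnfsf11 with the run of 4 called bins shaded; middle and bottom, 1 kb on either side of the starts of Tnfsf11 and Il6 (vertical line). WT is low and TCKO mostly high within the run and around the Il6 start, where a few CpGs with few calls are at 0 in both, and both are at 0 across the first 500 bases of Tnfsf11.

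The other called bins in Tnfsf11 lay in introns 1 and 2. The bin nearest to the start, at 1.94 kb, went from 35.7% of 28 calls to 95.8% of 24 calls (adjusted exact p = 0.000284). The next, at 5.94 kb, went from 36.8% of 19 calls to 100% of 24 calls. At 10.1 kb the levels were 15.4% of 26 calls and 93.1% of 29 calls. The bins at 17.7 and 19.3 kb went from 16.0% of 25 calls to 66.7% of 24 calls and from 29.2% of 24 calls to 88.5% of 26 calls. Downstream of the gene the bin at 30.9 kb went from 32.4% of 37 calls to 78.7% of 47 calls. The other 2, at 53.7 and 92.5 kb, had gains of 40.5 and 49.7 points.

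The Tnfsf11 locus had 17 testable bins below 30% in WT, none of them within 2 kb of the start of a protein-coding gene. Of these, 14 gained at least 40 points (82.4%), beside 42.6% of such bins in the genome. The 2 that gained under 10 points lay at -49.5 kb, with 25.9% of 27 calls in WT and 34.4% of 32 calls in TCKO, and at -10.7 kb, with 17.9% of 28 calls and 26.3% of 19 calls. Over all 6 loci it was 18 of 36 such bins (50%), near the share of the genome, with 2 of 6 at Csf1, 2 of 2 at Il6, 0 of 3 at Tnfrsf11b, 0 of 4 at Tnfrsf11a and 0 of 4 at Vdr. Within 2 kb of a start 1 of 6 low bins gained 40 points, that of Il6, beside 8.78% of such bins in the genome. At Tnfrsf11a 3 of the 4 low bins farther from a start gained under 10 points, beside 24.4% of such bins in the genome. A bin in intron 9 (63.0 kb) had 0 of 108 calls in WT and 3.45% of 145 calls in TCKO, and one downstream (87.0 kb) had 1.81% of 221 calls and 0.521% of 192 calls. These bins held 16 and 24 CG cytosines, more than any called bin of the 6 loci. The third, in exon 6, was at 3.12% of 32 calls and 12.1% of 33 calls. Whether CG density sets which low bins gain was not tested.

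At Il6 the called bins besides that at the start were one on each side of the gene. The bin at 14.4 kb, downstream (chr5:30027401-30027600), had the largest gain, from 2.94% of 34 calls to 79.4% of 34 calls (adjusted exact p = 7.01e-09). It is shown on the plus strand with CG in capitals, as the Il6 bin with the largest gain.

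Il6 bin at 14.4 kb: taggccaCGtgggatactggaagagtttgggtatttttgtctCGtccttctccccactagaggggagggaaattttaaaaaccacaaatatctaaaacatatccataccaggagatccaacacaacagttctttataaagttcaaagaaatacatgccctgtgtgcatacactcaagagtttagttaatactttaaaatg

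The bin at -12.0 kb (chr5:30001001-30001200), inside an intron of the noncoding gene A230098N10Rik, went from 5.88% of 17 calls to 57.9% of 19 calls (adjusted exact p = 0.0236).

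At Csf1 the 2 largest gains lay close together downstream of the gene. The bin at 37.4 kb (chr3:107723001-107723200) went from 23.7% of 59 calls to 88.9% of 54 calls (adjusted exact p = 3.35e-10), and that at 36.8 kb from 17 of 68 calls (25%) to 85.0% of 40 calls (adjusted exact p = 2.19e-07). The bin between them at 37.2 kb, with 54.9% of 82 calls in WT and 89.0% of 73 calls in TCKO, passed the test with a gain under 40 points. The remaining called bins of Csf1, at -17.0, -6.63 and 9.37 kb, were partly methylated in WT, at 41.2% to 56.2%, and reached 83.3% to 97.2% in TCKO. A broader shift was seen as well: 65 of 77 testable bins of Csf1 (84.4%) were higher in TCKO, beside 68.1% of the genome, with a median gain of 12.5 points against 4.71.

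The 3 called bins of Tnfrsf11a were in introns. Those in intron 1, at 1.78 and 6.58 kb, went from 33.3% of 42 calls to 77.8% of 36 calls and from 33.3% of 24 calls to 81.5% of 27 calls. That in intron 5, at 38.8 kb, went from 36.7% of 98 calls to 82.2% of 107 calls (adjusted exact p = 4.11e-09).

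Tnfrsf11b had no called bin in the gene or upstream of it. Its 2 called bins lay downstream, at 33.6 kb (44.6% of 56 calls to 85.0% of 40 calls) and at 36.2 kb (33.3% of 33 calls to 81.8% of 22 calls). A bin in intron 1, at 11.8 kb, passed with a smaller gain, from 0 of 26 calls to 31.2% of 32 calls (adjusted exact p = 0.0247).

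The locus of Vdr had no called bin, and its largest gain was 33.3 points, at 61.3 kb downstream of the start, from 15.6% of 45 calls to 48.8% of 43 calls (adjusted exact p = 0.0226). A bin in intron 1, at 2.93 kb, went from 10.3% of 39 calls to 42.9% of 35 calls (adjusted exact p = 0.0427). The Vdr locus was also the shallowest, with 3.99 calls per CG cytosine in WT and 3.17 in TCKO, and 27.1% of its bins with enough CG were testable, beside 48.0% of the genome. With a mean of 1 call per cytosine in place of 4, Vdr had 9 of 338 bins called, beside 2.58% of the genome.

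**Figure D5:**
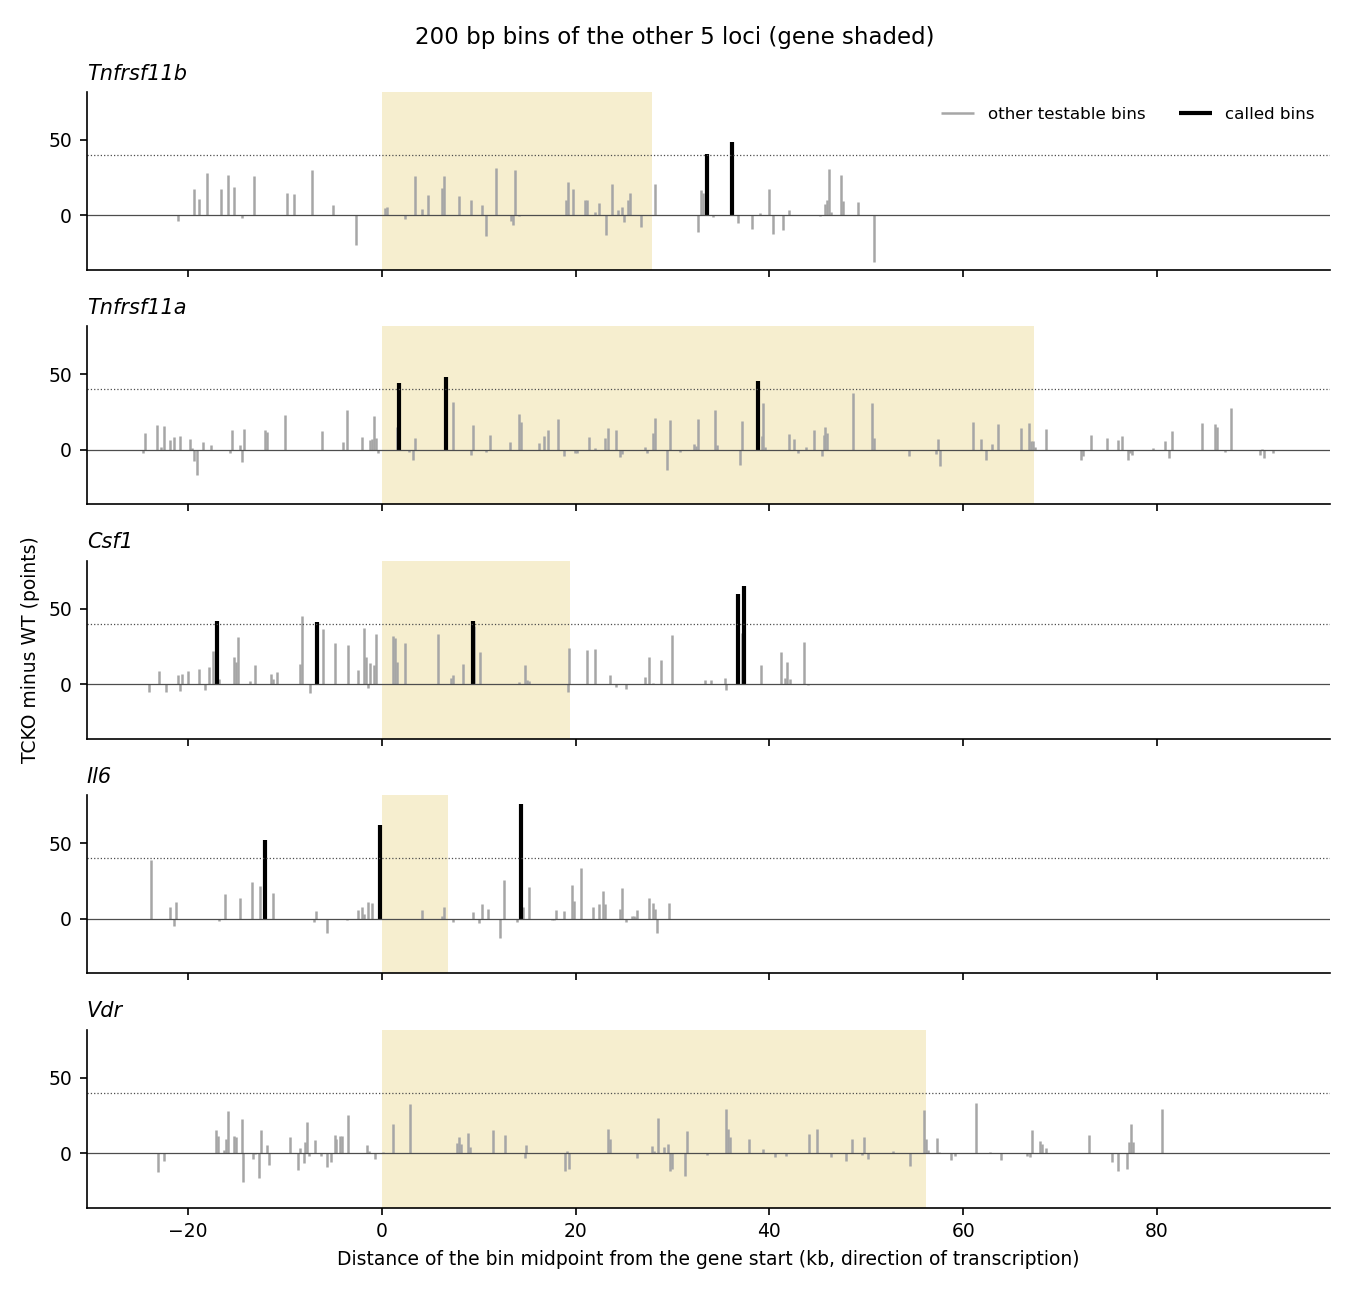
TCKO minus WT (y axis, points) of testable 200 bp bins by distance from the gene start (x axis, kb, direction of transcription; gene shaded) at Tnfrsf11b, Tnfrsf11a, Csf1, Il6 and Vdr. Called bins are black, other testable bins grey, and the 40-point threshold dotted. Il6 has a called bin at its start, Tnfrsf11b has 2 called bins downstream, and Vdr has none.

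At the 40-point limit, the called bins with the smallest gains were those at 33.6 kb of Tnfrsf11b (40.4 points), 53.7 kb of Tnfsf11 (40.5 points) and -6.63 kb of Csf1 (41.0 points). Just under it were bins at -23.8 kb of Il6 (39.0 points), -60.1 kb of Tnfsf11 (38.7 points) and 9.57 kb of Csf1 (38.3 points). A bin of Tnfsf11 at 9.94 kb and one of Csf1 at -8.23 kb gained 44.6 and 45.4 points without passing the test, with 16 TCKO calls each.

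Motif letters were searched on both strands within the bins. The AP-1 site TGACTCA was in 4 of the 23 called Tnfsf11 bins, at -79.3, -55.3, -40.9 and 17.7 kb, and in the bin at the start of Il6. It was in 3.01% of all testable bins and in 8.55% of all called bins of the genome. The Runt site AACCACA was in 2 of the 36 called bins, at 53.7 kb of Tnfsf11 and 14.4 kb of Il6, beside 5.00% of testable and 9.004% of called bins. The TEAD site CATTCCA was in 3 of 36, beside 3.19% and 5.62%. The cAMP response site TGACGTCA was in 0 of 36, beside 0.175% and 0.234%. None of these strings contains another, and a match is only a match of letters.

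Other genes of the same pathways were taken as a list of 28 ligands, receptors, enzymes and other intracellular proteins. Around the start 12 passed as higher in TCKO and 1 as lower, beside 37.9% of all genes higher, with a median difference of 6.72 points against 4.71. The share of all genes that passed as lower is not given here, so the count of lower genes has no background. Among receptors, Lgr4, another receptor of RANKL, went from 33.5% to 55.3% (adjusted exact p = 1.06e-07), and Rxra, the partner of VDR on DNA, from 20.8% to 40.7% (adjusted exact p = 7.21e-06). The M-CSF receptor Csf1r, an osteoclast lineage gene, went from 71.8% to 84.6%, and its second ligand Il34 from 66.6% to 79.2%. The interleukin receptor genes Il6ra and Il11ra1 went from 51.7% to 62.0% and from 59.2% to 70.5%. Ptgs2, the enzyme that starts prostaglandin synthesis, went from 29.6% to 44.5%. The gene that passed as lower was Il6st, the shared signalling chain of interleukin-6 and its relatives, from 28.2% to 19.2% (adjusted exact p = 0.000279). Over the bodies 24 of the 28 passed as higher and 0 as lower, beside 64.4% of all genes higher.

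By their 4 levels, at the start and over the body in each library, the genes most like Tnfsf11 among 20490 were Smco4 (a distance of 1.499 points), Mkrn2 (2.04) and Nod2 (2.07). The nearest to Tnfrsf11b was Zdhhc23 (2.13), to Tnfrsf11a Esm1 (2.34), to Csf1 Mup7 (2.64) and to Vdr Ticam2 (1.23). Il6 stood farthest from its nearest gene, Spink13, at 4.84 points.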

How the data were processed

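Genomic DNA of primary osteoblasts was sequenced after bisulfite conversion, 1 library per genotype. Reads had been mapped to GRCm38 by BSMAP 2.74, with only unique alignments retained. For every CG cytosine of either strand the authors deposited counts: methylated (C) calls and all (C + T) calls, without normalization. Removal of duplicate reads is not given in the sources used here, and calls on 1 read are not independent, so p-values and intervals may be too narrow.

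Calls were pooled within regions of GENCODE M21 genes and in 200 bp bins, as stated beside each result. Start windows and bodies of protein-coding genes needed at least 20 calls in each library, and 2534629 bins were testable. Fisher exact tests were adjusted over all genes or all testable bins. The members, the lists and the motifs were chosen with earlier results of these data known. Named bins were, for each gene, the 3 called bins with the largest gain, the one nearest to the start, and runs at Tnfsf11. The remaining called bins were described because they are few, after their values were seen. From the 28 pathway genes those passing with at least 10 points at the start were named, at most 8, and Il6st after its value was seen. The likeness of genes was the Euclidean distance over 4 levels with at least 100 calls each. The code was tested on simulated data. Alternatives changed the averaging, coverage minimum, strand, window, flank, grid and thresholds. Computations used Python 3.11.15, numpy 2.4.6, pandas 2.3.3, numba 0.67.0 and matplotlib 3.10.9.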

Additional observations from a re-analysis of the deposited data

How the results depend on the processing

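The bodies of the 6 genes stayed higher in TCKO under each of 36 alternatives, and all of those that had a test passed it. The mean of single cytosine levels moved the body difference to 12.8 points for Tnfsf11, 8.21 for Tnfrsf11a, 9.57 for Csf1 and 22.5 for Il6. The Il6 body was at 7.33 points with at least 4 calls per cytosine and at 7.57 without the first 2 kb, against 15.4. The mean of single cytosine levels moved the start difference to 12.8 points for Tnfrsf11a and 39.8 for Il6, while cytosines with at least 4 calls gave 10.6 and 13.9. At the starts, Il6 passed under every alternative with a test, whereas Tnfrsf11a lost its call in the window of 1 kb upstream to 100 bp downstream (9.65 points) and Csf1 on the plus strand alone (7.78 points). The strands differed at Tnfsf11 (-0.54 points on the plus strand, and 8.61 with a call on the minus strand), at Tnfrsf11b (1.21 points, and -20.0 with a call) and at Vdr (-6.67 points on the minus strand). Tnfrsf11b also changed sign with at least 4 calls per cytosine (4.55 points) and in the narrow window (2.42 points). Vdr did so in the narrow window, with -0.54 points at its annotated 5′ end and -11.0 at the start of its principal transcript. The cause of these changes was not tested.

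The number of called bins followed the thresholds by construction. For Tnfsf11 and for all 6 loci it was 37 of 533 and 67 of 1459 testable bins with a mean of 1 call (2.58% of the genome), 3 of 62 and 4 of 161 with 10 calls (1.91%), 11 of 303 and 15 of 745 at 60 points (0.723%), and 6 of 80 and 8 of 187 with at least 8 CG cytosines (3.24%). With 10 calls the 6 loci were thus near the genome's share. It was 55 (4.62% of the genome) for all 6 loci at 30 points, 12 for Tnfsf11 with 25 kb flanks, and 65 for all 6 loci with 100 kb flanks for the other 5. With the grid shifted by 100 bp it was 21 and 36. After the data were seen, the 36 called bins were split by strand: 33 of the 33 with plus-strand calls and 35 of 36 on the minus strand were higher in TCKO, 29 and 26 of them with an exact p below 0.05. Since the bins were chosen for their pooled gain, their sign on each strand is a description. The exception, at 36.2 kb of Tnfrsf11b, was at 33.3% in both libraries on that strand.

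No paired analysis was possible because each genotype had 1 library. At a median of 4 calls per cytosine single sites are coarse, and a bin of 20 calls at 0% allows up to 16.1%.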
